A study of Mus musculus with 24 samples.

Results

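The miR-15/16 and miR-26 families were followed through all 8 groups of a mouse liver experiment on RNA quality. Their 6 members, mmu-miR-15a-5p, mmu-miR-15b-5p, mmu-miR-16-5p, mmu-miR-195a-5p, mmu-miR-26a-5p and mmu-miR-26b-5p, were chosen by name from the 1881 mouse miRNAs on the array, 4 from the miR-15/16 family and 2 from the miR-26 family. All 6 passed the filter of detection on at least 5 of the 24 arrays, which kept 631 miRNAs. Livers of 3 male mice, numbered 7, 10 and 9 in the labels, were divided and each mouse gave 1 array to each group, so n was 3 throughout. Neither strain nor age was given for these 3 mice in the sources used here.

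The groups differed in storage, in DNase digestion during RNA isolation, and in depletion of small RNAs followed by RNase. Fresh liver (0 h) was extracted with the miRNeasy kit, which retains small RNAs, with DNase (RIN 8.9 to 9, where RIN is the RNA integrity number, high for intact RNA) or without DNase (RIN 8.8). Liver left at room temperature for 96 h was extracted the same way with DNase (RIN 2.3 to 2.4) or without DNase (RIN 2.3 to 2.5). Fresh liver was also extracted with the RNeasy kit and DNase, which depletes small RNAs (RIN 9.2 to 9.4). This depleted RNA was in addition incubated without RNase, at 0 U (RIN 9 to 9.2), with 0.026 U RNase (RIN 6 to 7) or with 0.67 U RNase (RIN 2.4 to 2.9), and then isolated again. The labels of the 2 RNase arrays of mouse 9 contradict each other on the dose. They were assigned by the description and the extraction protocol, and the RNase comparison below averages both doses, so that its change does not depend on that assignment.

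The miR-15/16 family is known as a brake on the cell cycle and on cell survival. Its members share a seed, the stretch of bases that pairs with target mRNAs, and through it repress cyclins, cyclin-dependent kinases and the survival factor Bcl2. The miR-26 family is a separate family with its own seed, known for repressing the methyltransferase Ezh2 and cyclins and for its reduced level in liver tumours. Both families are made in most tissues.

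The mature sequences are shown because the family members share their 5′ part and differ in the rest, and because the relatives behaved unequally below. They are from RefSeq (GRCm38.p6), 5′ to 3′, with the seed, bases 2 to 8, in capitals. All 6 names matched.
mmu-miR-15a-5p: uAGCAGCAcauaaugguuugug
mmu-miR-15b-5p: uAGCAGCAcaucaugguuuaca
mmu-miR-16-5p: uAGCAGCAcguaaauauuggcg
mmu-miR-195a-5p: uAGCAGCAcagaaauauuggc
mmu-miR-26a-5p: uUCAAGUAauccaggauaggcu
mmu-miR-26b-5p: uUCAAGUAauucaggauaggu

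The 4 members of the miR-15/16 family carried the seed AGCAGCA and the 2 of the miR-26 family the seed UCAAGUA. Counted from 1 at the 5′ end, miR-15a-5p and miR-15b-5p had the same base at 18 of 22 positions, with the differences A12C, G20A, U21C and G22A (miR-15a-5p first). miR-16-5p and miR-195a-5p had the same base at 19 of the 21 positions they share, with the differences G10A and U11G. miR-26a-5p and miR-26b-5p also had the same base at 19 of 21 positions, with C11U and C21U. miR-26b-5p had the lowest G and C content of the 6, 33.3%, and miR-16-5p the highest, 45.5%.

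In GRCm38.p6, miR-15a-5p (Mir15a, minus strand) lies at chr14:61632075-61632096, near the Mir16-1 copy of miR-16-5p at chr14:61631936-61631957. miR-15b-5p (Mir15b, plus strand) lies at chr3:69009775-69009796, and its hairpin is separated by 66 bases from that of Mir16-2, whose miR-16-5p is at chr3:69009918-69009939. The array signal of miR-16-5p therefore sums products of 2 genes of identical mature sequence. miR-195a-5p (Mir195a, plus strand) is at chr11:70235062-70235082. miR-26a-5p also comes from 2 genes, Mir26a-1 at chr9:119031811-119031832 and Mir26a-2 at chr10:126995543-126995564 (both plus strand), and miR-26b-5p from Mir26b at chr1:74394324-74394344 (plus strand).

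Each array gave a total signal per miRNA, in intensity units after background subtraction, from 2 probes of 15 spots each. No spot of these miRNAs was saturated, and the number of arrays limits the precision. Between 273 and 342 miRNAs were detected on a fresh array, 582 to 707 on a stored array and 186 to 408 on an array of depleted RNA. The liver label was borne out by miR-122-5p, miR-192-5p and miR-194-5p, which are typical of hepatocytes and were detected on all arrays, while the brain markers miR-124-3p, miR-9-5p and miR-128-3p were detected on none. Of the muscle markers, miR-1a-3p was detected on none and miR-133a-3p and miR-206-3p only on arrays of stored liver. A slide and its scan held the 8 arrays of 1 mouse, so effects of the mouse cannot be told apart from those of its slide or scan. The array of mouse 10 stored with DNase stood apart over all tested miRNAs (r = 0.884 with that of mouse 7 and 0.849 with that of mouse 9, against 0.977 between those 2). Both stored arrays of mouse 10 gave the highest signals of their group for each of the 6 miRNAs, as did its fresh arrays.

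Detection differed between the members. miR-15b-5p, miR-16-5p, miR-26a-5p and miR-26b-5p were detected on all 24 arrays and miR-15a-5p on 23, the exception being the depleted array of mouse 10. miR-195a-5p was detected on 10 arrays: the 6 fresh arrays, the 3 arrays stored without DNase and 1 array stored with DNase. It was not well above background on any of the 12 arrays of depleted RNA.

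**Figure D1:**
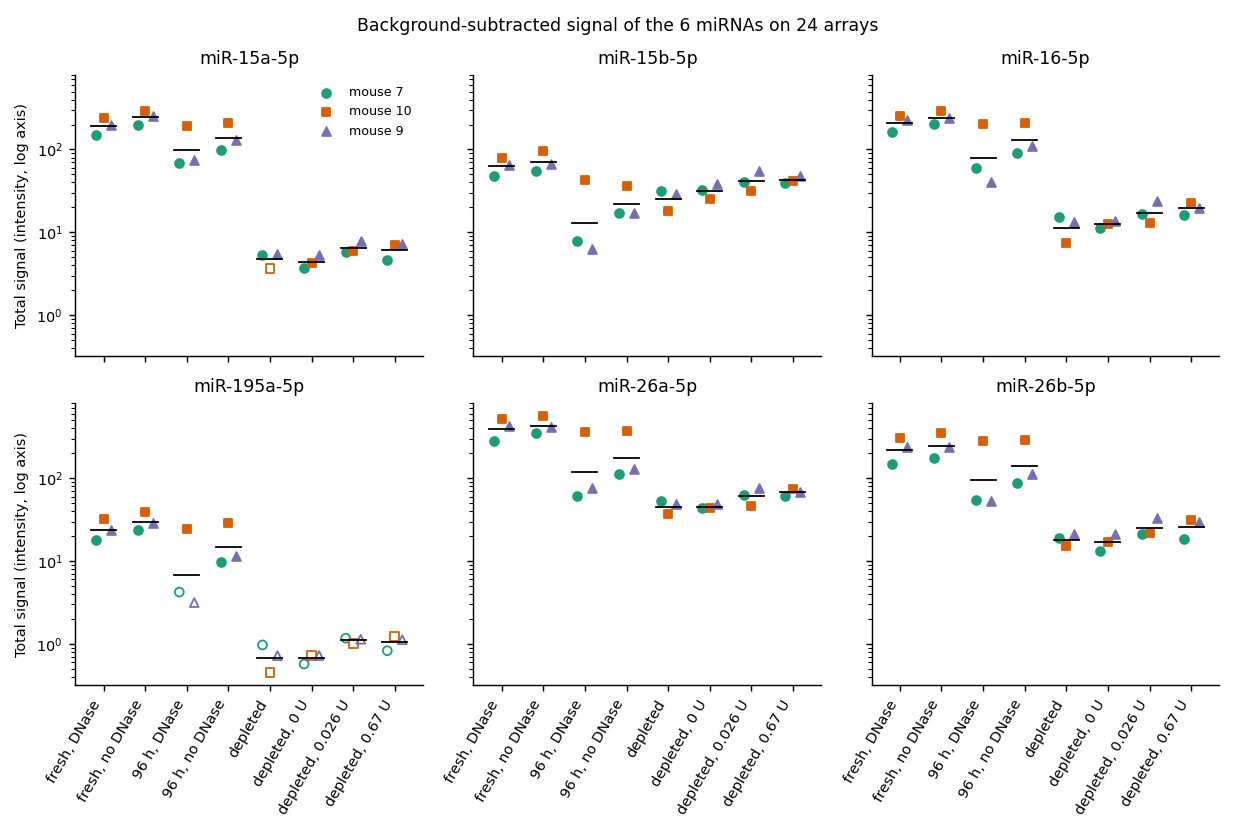
Total background-subtracted signal (intensity, log axis) of each of the 6 miRNAs in the 8 groups. Points are arrays, coloured by mouse, open where the miRNA was not detected, and lines are geometric means of 3 arrays. miR-15b-5p dropped lowest in stored liver (6.29 on the array of mouse 9 stored with DNase), whereas the other 5 dropped lowest in the depleted RNA, and the stored arrays of mouse 10 (squares) stayed closest to their fresh arrays.

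Storage for 96 h at room temperature lowered all 6 miRNAs. In the order mouse 7, 10 and 9, the signal of miR-15a-5p was 149, 239 and 199 in fresh liver with DNase and 69.3, 191 and 74.1 in stored liver with DNase. That of miR-16-5p, the most studied member of the family, was 163, 253 and 226 fresh and 59.6, 201 and 40.0 stored. That of miR-26a-5p was 283, 513 and 425 fresh and 60.8, 363 and 75.5 stored. In each of these the signal fell in all 3 mice, but that of mouse 10 fell least and its stored value lay within the fresh range, so that the groups overlapped. The signal of miR-15b-5p was 47.8, 79.0 and 65.5 fresh and 7.91, 43.0 and 6.29 stored, and here the groups did not overlap.

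The same held without DNase. miR-15a-5p gave 199, 295 and 251 in fresh and 97.8, 210 and 129 in stored liver, and miR-15b-5p gave 55.4, 96.5 and 66.0 in fresh and 16.98, 36.6 and 17.3 in stored liver. Again only miR-15b-5p, of the 6, had stored signals below all fresh signals. miR-26b-5p gave 174, 352 and 241 in fresh and 87.8, 289 and 112 in stored liver. miR-195a-5p gave 23.8, 39.1 and 28.7 in fresh and 9.76, 28.7 and 11.4 in stored liver.

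As mean fold of the signal itself, with DNase the fall was 1.94-fold for miR-15a-5p, 4.87-fold for miR-15b-5p, 2.69-fold for miR-16-5p, 3.47-fold for miR-195a-5p, 3.33-fold for miR-26a-5p and 2.34-fold for miR-26b-5p. miR-195a-5p was detected on 1 of the 3 stored arrays, that of mouse 10, so its fold rests in part on signals not well above background. In mouse 10 alone these folds ran from 1.08 for miR-26b-5p to 1.84 for miR-15b-5p. In mouse 9 alone they ran from 2.69 for miR-15a-5p to 10.4 for miR-15b-5p. The mice thus differed in how much signal was lost, and miR-15b-5p lost the most of the 6 in each of them.

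After variance stabilizing normalization, which gives glog2 values (a scale close to log2 that levels off near background), the falls were larger, since stored arrays were brighter over all miRNAs and were scaled down. With DNase the change was -2.76 ± 0.40 (SE, n = 3 against 3) for miR-15a-5p, with a limma adjusted p of 2.35e-06, and -3.94 ± 0.54 for miR-15b-5p, with an adjusted p of 1.16e-06. It was -3.22 for miR-16-5p, -3.32 for miR-195a-5p, -3.54 for miR-26a-5p and -3.03 for miR-26b-5p, where the 95% interval was -4.22 to -1.85. All 6 were called lower (adjusted p under 0.05 and a change of at least 1). On this scale stored and fresh arrays did not overlap for any of them, whereas on the signals this held for miR-15b-5p only. The share of all tested miRNAs without overlap was not counted, so the absence of overlap is no trait of the members. Among all 631 tested miRNAs 21.6% were called lower and 60.4% higher, and the median change was 2.47 against -3.27 for the 6 members.

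Without DNase the 6 members were again called lower. The changes ranged from -2.46 for miR-26b-5p (adjusted p 0.00046 by limma) to -3.29 for miR-15b-5p (adjusted p 1.17e-05), where 23% of all tested miRNAs were called lower. The members were, however, all detected in fresh liver, and of the 247 tested miRNAs detected on all 6 fresh arrays 50.6% were called lower with DNase and 54.3% without. The median change of those 247 was -1.10 with DNase and -1.95 without, against -3.27 and -2.59 for the 6 members. Ranked by the size of their fall among those 247, the members held ranks 25 (miR-15b-5p) to 87 (miR-15a-5p) with DNase and 48 to 106 without.

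The size of the storage change depended on the scaling. The median over all tested miRNAs with DNase lay between 0.14 (normexp with quantiles) and 3.55 (no normalization) over 7 scalings, and that of the 6 members between -1.58 (no normalization) and -4.69 (quantiles). Scaled on spike-in probes, the changes with DNase ran from -1.41 to -2.74 and all 6 stayed called. Under that scaling 582 of the 631 tested miRNAs were called in either direction, with a median change of 3.13. With no normalization between arrays 5 of 6 were called with DNase, all but miR-15a-5p, and 2 of 6 without DNase, miR-15b-5p and miR-26a-5p. Of the 631 tested miRNAs, 584 with DNase and 579 without were called in either direction there. Cell type markers moved too. The 3 hepatocyte miRNAs were all called lower in storage with DNase (-3.08 for miR-122-5p, -2.68 for miR-192-5p and -3.48 for miR-194-5p), and their summed signal was 7655 to 13355 in fresh and 3546 to 6741 in stored liver. Of the 3 red blood cell miRNAs, miR-451a (-2.56) and miR-144-3p (-5.42) were called lower and miR-486a-5p (1.02) higher, and their summed signal of 224 to 429 in fresh and 182 to 236 in stored liver overlapped. miR-144-3p was detected on none of those 3 stored arrays. The summed signal of the 4 white blood cell miRNAs (miR-142a-3p, miR-142a-5p, miR-223-3p, miR-150-5p) was 45.0 to 119 and 11.5 to 26.9. The part of any of these cell types in the falls was not tested, and in bulk liver fewer cells of a type and less RNA per cell cannot be told apart.

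**Figure D2:**
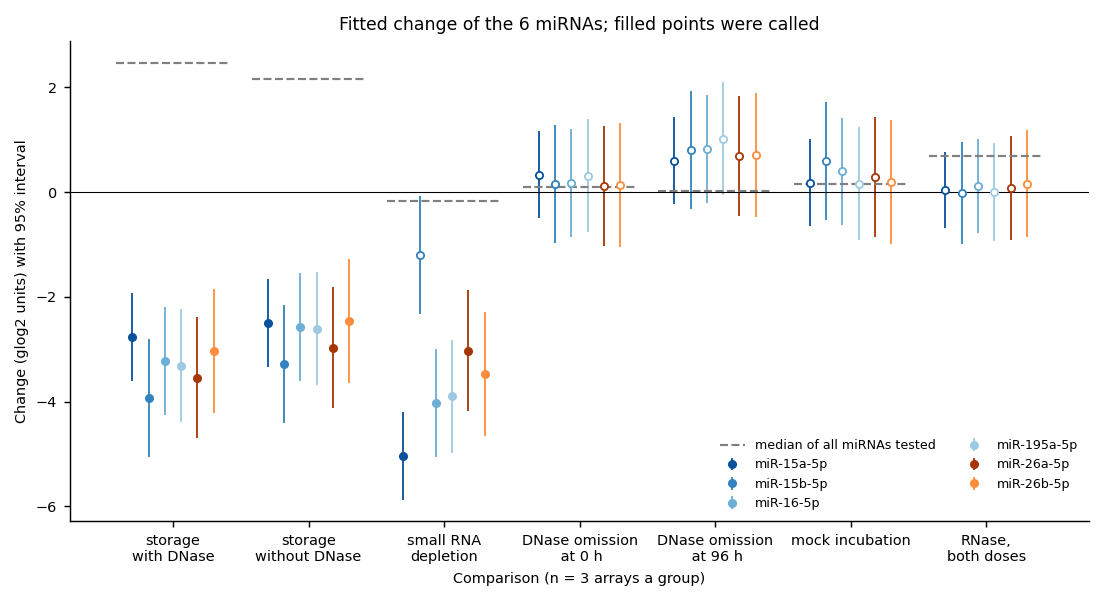
Fitted change (glog2 units, y axis) of each miRNA in 7 comparisons of 3 arrays a group (6 RNase arrays against 3), with 95% intervals, and the median over all tested miRNAs as a dashed line. Filled points passed both the adjusted p and the size threshold. All 6 lie below -2.4 in both storage comparisons while the median of all lies above 2, and in small RNA depletion miR-15b-5p (-1.19) lies apart from the other 5.

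Whether DNase altered the storage change was tested by the interaction, and no member was called: the difference of the changes was 0.27 (miR-15a-5p) to 0.71 (miR-195a-5p), with limma adjusted p from 0.721 to 0.889. At unadjusted p under 0.05 none of the 6 members and 87 of the 631 miRNAs passed, and 1.11% were called. Leaving DNase out in fresh liver gave changes of 0.12 to 0.34 with no call in the members or in any miRNA (0% called, limma adjusted p 0.991). At unadjusted p under 0.05 none of the members and 30 miRNAs passed, and the exact rank-sum test cannot pass with 3 arrays against 3 (its smallest p is 0.1). The widest 95% interval of a member ran from -1.05 to 1.32 (miR-26b-5p), so a change of up to about that size was not excluded by these arrays.

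In stored liver, leaving DNase out gave higher values in mice 7 and 9 and lower values in mouse 10 for all 6 members on the glog2 scale. On the signals themselves mouse 10 was higher without DNase for 5 of the 6, with log2 differences from -0.23 (miR-15b-5p) to 0.25 (miR-195a-5p), so its direction on the glog2 scale is set by the scaling. For miR-16-5p the differences were 0.84 in mouse 7, 2.03 in mouse 9 and -0.39 in mouse 10. The fitted changes ran from 0.60 ± 0.40 (SE) for miR-15a-5p to 1.02 ± 0.52 for miR-195a-5p, and none was called (limma adjusted p 0.263 to 0.476), where 10.8% of all miRNAs were. Without mouse 10 all 6 were called higher, at 1.05 (miR-15a-5p) to 1.64 (miR-195a-5p), where 152 of the 631 tested miRNAs were called in either direction. That result rests on which mice are included, and none of the 6 passed at unadjusted p under 0.05 with all mice.

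After depletion of small RNAs the members kept very different parts of their signal. Signals of miR-15a-5p were 149, 239 and 199 (mice 7, 10 and 9) in fresh liver with DNase and 5.30, 3.69 and 5.43 in depleted RNA, a 40.6-fold lower mean. Those of miR-16-5p went from 163, 253 and 226 to 15.2, 7.33 and 13.3, 18.4-fold lower. Those of miR-15b-5p went from 47.8, 79.0 and 65.5 to 31.3, 18.1 and 29.4, 2.46-fold lower. The groups did not overlap in any of these, but the share of all tested miRNAs without overlap was not counted. miR-15a-5p and miR-15b-5p, which share their seed and 18 of 22 bases, lay far apart in what they kept.

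The miR-26 members lay between these. miR-26a-5p went from 283, 513 and 425 to 53.1, 36.6 and 48.2, 8.70-fold lower, and miR-26b-5p from 148, 308 and 238 to 18.8, 15.2 and 20.998, 12.2-fold lower. miR-195a-5p went from 17.8, 31.8 and 23.8 to values not well above background, so that only a bound can be given: it was at least 22.0-fold lower, with the dim side set at the higher of its own signal and the lowest detected signal of each array, after scaling (limma adjusted p 3.36e-06).

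On the glog2 scale 5 of the 6 were called lower, from -3.03 ± 0.55 (miR-26a-5p, limma adjusted p 0.000142) to -5.04 ± 0.40 (miR-15a-5p, adjusted p 2.60e-09). miR-15b-5p changed by -1.19 ± 0.54 with an adjusted p of 0.11 and was not called, though it was lower in 3 of 3 mice. Among all tested miRNAs 24.4% were called lower, and 48.2% of those detected on all 6 fresh arrays. Among those 247, miR-15a-5p held rank 21 by size of fall and miR-15b-5p rank 121.

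These calls depended on the scaling for the members that fell least. miR-15b-5p turned to 0.95, 0.91 and 0.54 when arrays were scaled on the 75th percentile, by quantiles or by normexp and quantiles, none of them called, and was called when only the compared groups were fitted. miR-26a-5p was no longer called under those 3 scalings (-0.68 to -0.87), and miR-26b-5p under quantile normalization (-1.26). miR-15a-5p, miR-16-5p and miR-195a-5p were called under each scaling. The summed red blood cell signal was 6.05 to 9.22 and the white blood cell signal 4.29 to 6.67 in depleted RNA, and the hepatocyte signal 2489 to 3207 against 7655 to 13355 in fresh liver.

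**Figure D3:**
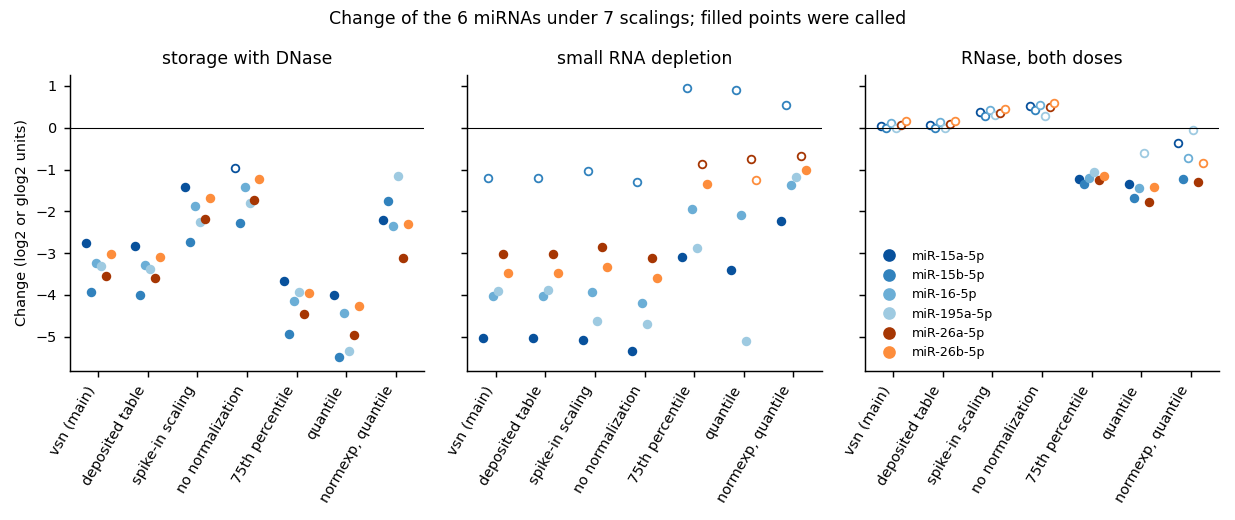
Change of each miRNA (log2 or glog2 units, y axis) under 7 scalings (x axis) in 3 comparisons, with filled points where the call was made. In storage with DNase all 6 lie below 0 under each scaling. In depletion miR-15b-5p lies above 0 under the last 3 scalings, and after RNase all 6 lie within 0.16 of 0 under vsn but below 0 under the same 3.

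Incubating the depleted RNA without RNase moved no member past the threshold: changes were 0.16 (miR-195a-5p) to 0.60 (miR-15b-5p), with limma adjusted p of 0.992. None of the 6 passed at unadjusted p under 0.05, where 48 miRNAs did, and 1.74% of all were called. RNase on the depleted RNA, against the 0 U incubation and over both doses, gave changes of -0.01 (miR-15b-5p) to 0.16 (miR-26b-5p), none called, while 44.7% of all tested miRNAs were called changed and their median change was 0.69. None of the 6 passed at unadjusted p under 0.05, where 319 miRNAs did. The 95% interval was -0.68 to 0.77 for miR-15a-5p and -0.87 to 1.18 for miR-26b-5p.

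The signals themselves were slightly higher after RNase. miR-15b-5p gave 32.9, 25.0 and 38.5 (mice 7, 10 and 9) at 0 U, 41.0, 31.6 and 54.8 at 0.026 U, and 39.1, 42.03 and 48.0 at 0.67 U. miR-26a-5p gave 44.0, 43.5 and 48.6 at 0 U, 63.0, 46.4 and 76.8 at 0.026 U, and 60.5, 74.0 and 68.6 at 0.67 U. The mean fold over both doses was 1.33 (miR-15b-5p) to 1.51 (miR-26b-5p) for the members other than miR-195a-5p. Signals of miR-195a-5p were not well above background (0.57 to 0.72 at 0 U, 0.83 to 1.24 with RNase), so no fold is given for it. When arrays were scaled on the 75th percentile of the miRNAs detected everywhere, all 6 were called lower instead, at -1.06 to -1.33. Under that scaling 344 of the 631 tested miRNAs were called in either direction. The direction of the members after RNase is thus set by the scaling, and no direction is stated here.

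As a share of all detected signal on an array, the 6 members together held 1.27 to 1.46% in fresh liver with DNase and 0.759 to 1.001% without. In stored liver the share was 0.0688 to 0.555% with DNase and 0.212 to 0.441% without. In depleted RNA it was 0.802 to 1.41%, which overlaps the fresh share, and it was 1.02 to 1.47% after the 0 U incubation. With RNase it was 0.111 to 0.392% at 0.026 U and 0.105 to 0.247% at 0.67 U. The total detected signal rose from 7125 to 10043 at 0 U to 36325 to 177642 at 0.026 U. The shares of 0.111% and 0.247% were those of mouse 9, whose labels contradict each other on the dose. Mice 7 and 10 had shares of 0.392 and 0.327% at 0.026 U and of 0.167 and 0.105% at 0.67 U. The ranges of share and total at each dose therefore depend on how the arrays of mouse 9 were assigned.

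Relatives were also compared by the difference of their glog2 values on the same array, which near background still depends on the scaling between arrays. For 7 pairs of relatives (6 in the miR-15/16 family and 1 in the miR-26 family) and 3 comparisons, the difference of the 2 changes was tested by an exact two-sided permutation within mice, with p adjusted over the 21 tests. To allow an exact test below the threshold, groups were joined: both stored groups (6 arrays), or the depleted RNA before and after the 0 U incubation (6 arrays), were set against the same 6 fresh arrays with and without DNase, so these differences are not those of the single comparisons above. The smallest p this design allows is 0.00926 for storage and depletion and 0.037 for RNase. In storage and depletion each mouse gave 2 arrays to each side, from parts of 1 liver or, for depleted RNA, from the same RNA. The permutation treats these repeated arrays as exchangeable units. Its p therefore does not measure the spread between mice, of which there were 3. After adjustment 10 of the 21 tests had an exact permutation p of 0.0194, 4 in storage and 6 in depletion, and none in RNase, where p before adjustment was 0.222 or more. On the log2 signal, with values under 0.901 set to 0.901, 12 of the 21 passed. Such a difference of log2 signals needs no scaling between arrays. All tests of miR-195a-5p in depletion and RNase set it at signals not well above background.

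In storage, over arrays with and without DNase, miR-15b-5p fell more than each of its 3 relatives. Its fall exceeded that of miR-15a-5p by 0.98 (0.70 to 1.30 in the 3 mice), that of miR-16-5p by 0.71 (0.70 to 0.72) and that of miR-195a-5p by 0.65 (0.57 to 0.72), each with an adjusted exact p of 0.0194. miR-26a-5p fell by 0.51 more than miR-26b-5p (0.34 to 0.72), with the same adjusted p. The other 3 pairs did not pass, with differences of 0.06 to 0.33.

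In the depleted RNA before and after the 0 U incubation, against the same fresh arrays, miR-15b-5p fell less than miR-15a-5p by 4.14 (3.80 to 4.37 in the 3 mice) and less than miR-16-5p by 2.94 (2.70 to 3.08). miR-26a-5p fell less than miR-26b-5p by 0.51 (0.37 to 0.60). miR-15a-5p in turn fell more than miR-16-5p, with a difference of -1.197. These 4 differences had an adjusted exact p of 0.0194, and the arrays compared did not overlap. How often other pairs of miRNAs lack overlap was not counted. For the depleted RNA alone against fresh liver with DNase, miR-15b-5p fell less than miR-15a-5p by 3.84 and less than miR-16-5p by 2.83. The other 2 differences that passed were those of miR-15a-5p and miR-15b-5p from miR-195a-5p, whose fall there is known only as a bound, so no size is given for them.

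miR-16-5p and miR-195a-5p, with 19 of 21 bases in common, had the smallest difference of the 7 pairs in storage, 0.06 (-0.02 to 0.15 in the 3 mice, adjusted exact p = 0.538), where miR-195a-5p was detected on 4 of the 6 stored arrays. In depletion miR-195a-5p was not well above background, and its difference from miR-16-5p moved with the scale, from 0.06 in glog2 to 0.63 in log2 signal. Its log2 signals there were in part set by the floor of 0.901. The pair was therefore not shown to act alike.

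**Figure D4:**
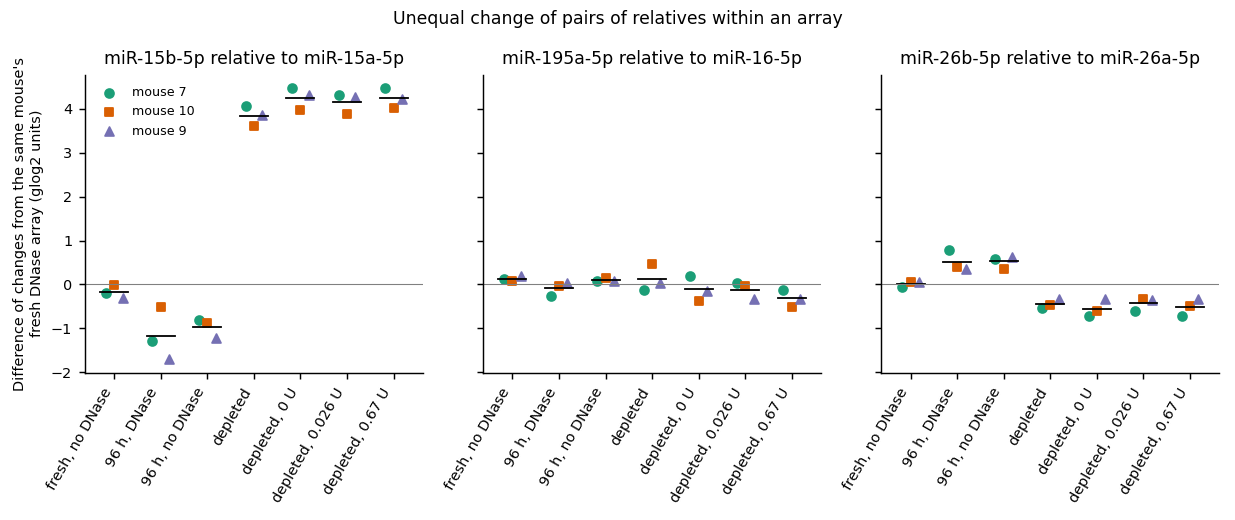
Change of 1 relative minus that of the other (glog2 units, y axis), counted from the fresh DNase array of the same mouse, in the other 7 groups. Points are mice and lines are means of 3. miR-15b-5p lies 0.53 to 1.71 below miR-15a-5p in stored and 3.60 to 4.48 above it in depleted RNA, and miR-26b-5p turns the other way by a smaller amount. miR-195a-5p, which is not well above background in depleted RNA, lies between 0.50 below and 0.47 above miR-16-5p.

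The 2 probes of each member were set side by side on their own log2 signals. In depletion they agreed for miR-15b-5p, with -1.30 on each, and for miR-15a-5p, with -5.40 and -5.29. In storage with DNase they differed for miR-15b-5p, with -2.95 on the first and -1.79 on the second probe, and by at most 0.14 for the other 5. Both probes of miR-15b-5p fell more than both probes of miR-15a-5p (-0.98 and -0.93) and of miR-16-5p (-1.37 and -1.45). Against miR-195a-5p (-1.71 and -1.84) this held for the first probe of miR-15b-5p and not for the second, which lay between the 2 probes of miR-195a-5p. The probes of miR-195a-5p differed by 0.96 in depletion, where its signal was not well above background.

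The order of the 8 groups was not the same for all members. On the glog2 scale fresh liver was highest for all 6, with the 2 fresh groups overlapping each other and not the next group. The share of all tested miRNAs with such an order was not counted. For miR-15a-5p stored liver followed (means 5.64 and 5.04) and the 4 depleted groups came last (2.76 to 3.07), overlapping among themselves. For miR-15b-5p the depleted groups (5.001 to 5.62) came before stored liver (3.06 and 2.26), without overlap between them on this scale. Its signals did overlap, at 18.1 to 31.3 in depleted RNA, 16.98 to 36.6 stored without DNase and 6.29 to 43.0 stored with DNase. Those at 0.67 U RNase, 39.1 to 48.0, lay above liver stored without DNase and overlapped liver stored with DNase. The absence of overlap for miR-15b-5p therefore depends on the scaling. For miR-16-5p, miR-195a-5p and miR-26b-5p, stored liver with DNase overlapped the next depleted group, and for miR-26a-5p the stored and depleted groups were mixed. Over the 8 group means Pearson's r between members ran from 0.111 (miR-15a-5p and miR-15b-5p) to 0.998 (miR-16-5p and miR-26b-5p), as a description of 8 groups that share mice.

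The tested miRNAs outside the families whose 8 group means were most like the mean of the 6 members were miR-29a-3p (r = 0.996), miR-194-5p (r = 0.995), miR-126a-5p (r = 0.995), miR-22-3p (r = 0.994) and miR-10a-5p (r = 0.993). The members themselves had r from 0.505 (miR-15b-5p) to 0.995 (miR-26b-5p) with that mean, of which each is a part.

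The other arms of the same hairpins were mostly not detected. Of 8 such arms on the array, 4 were detected on no array and 1, miR-195a-3p, passed the filter. Its sequence is shown because it changed in the opposite direction to miR-195a-5p, with which it shares a hairpin.
mmu-miR-195a-3p: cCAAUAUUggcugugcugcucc

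miR-195a-3p was not detected on any fresh array and was detected on all 6 stored arrays, at 14.9, 24.7 and 36.6 with DNase and 57.9, 62.7 and 46.8 without (mice 7, 10 and 9). It was called higher in storage by limma (adjusted p 2.47e-06 with DNase and 3.08e-07 without), at least 7.996-fold higher with DNase and at least 20.4-fold without by the same bound as above. With DNase 60.4% of all tested miRNAs were called higher. The changes of miR-195a-5p were -3.32 and -2.61. miR-195a-3p was also detected on all 6 RNase arrays (2.29 to 25.96) and on none of the 6 other arrays of depleted RNA. It was at least 7.44-fold higher after RNase (limma adjusted p 8.32e-06), where 44.7% of all tested miRNAs were called changed. It passed the filter only through the stored and RNase arrays, the only ones on which it was detected. Its calls in storage and after RNase are therefore no independent test of a rise. miR-16-1-3p, the other arm of Mir16-1, was detected on 4 arrays, all of stored liver: 23.5, 16.6 and 18.1 without DNase and 3.20 in mouse 9 with DNase.

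Of 10 relatives (the wider group of miR-15 and miR-107 and other miRNAs with either seed), 4 were tested. All 4 were called lower in storage with DNase, in storage without DNase and in depletion. In that order 21.6%, 23% and 24.4% of all tested miRNAs were called lower, and 50.6%, 54.3% and 48.2% of those detected on all 6 fresh arrays. Of the 4, miR-322-5p was detected on the 6 fresh arrays only. Its signals in stored liver and in depleted RNA were not well above background. It passed the filter only through the fresh arrays, so its calls are no independent test of a fall. 5 of the 10 were detected on no array. The sequences of 2 of the 4 are shown to set their seeds beside those of the families.
mmu-miR-497a-5p: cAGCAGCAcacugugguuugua
mmu-miR-107-3p: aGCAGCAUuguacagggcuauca

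miR-497a-5p, which has the seed of the miR-15/16 family and whose hairpin lies 241 bases from that of Mir195a, gave 15.2, 28.5 and 19.5 in fresh liver with DNase (mice 7, 10 and 9), 4.89, 13.4 and 4.44 in stored liver and 1.99, 1.41 and 1.67 in depleted RNA, where it was detected on 1 of 3 arrays. Its change was -3.19 in storage with DNase and -2.98 in depletion. The seed of miR-107-3p, GCAGCAU, is that of the miR-15/16 family shifted by 1 base, and miR-107-3p changed by -3.46 and -2.36. The largest storage change of the 4 was that of miR-103-3p, -4.87 with DNase. The median over the 4, miR-322-5p included, was -3.32 in storage with DNase and -2.45 in depletion. None was called after RNase, where miR-322-5p was detected on neither side.

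Other miRNAs known for restraining the cell cycle, the let-7 family with miR-98-5p and the families of miR-34 and miR-449, gave 10 tested of 15, while 5 were detected on no array. All 10 were called lower in storage with DNase and without, where 21.6% and 23% of all tested miRNAs and 50.6% and 54.3% of those detected in fresh liver were, with medians of -3.95 and -3.39, led by let-7e-5p (-5.56 with DNase, detected on 1 of the 3 stored arrays), let-7f-5p (-5.12) and let-7d-5p (-4.93). In depletion 6 of the 10 were called lower, near the 48.2% among miRNAs detected in fresh liver, with a median of -1.91 over the 10. Among them were let-7g-5p (-3.17), let-7f-5p (-2.82) and let-7i-5p (-2.36). let-7b-5p changed by -0.41 (adjusted p 0.619 by limma) and was not called, and differences between these relatives were not tested. None of the 10 was called after RNase.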

How the data were processed

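Per the file headers, the 24 one-colour Agilent mouse miRNA arrays were read with Agilent Feature Extraction 10.10.1.1, with mm9 as the header's build. The deposited scanner files give each miRNA a total signal in intensity units after background subtraction and a detection flag, and the authors deposited a table normalized by variance stabilization on a log2 scale, used here as an alternative. RNA was labelled with Cy3-pCp. Here the intensities were normalized by a variance stabilizing fit written for this work (7 rounds, 90% of miRNAs kept), whose values differed from the deposited log2 values with an SD of 0.0956, and miRNAs detected on at least 5 arrays were kept. The study's methods state the same filter but a larger number of miRNAs left, and the detection call behind it is not given in the sources used here, so the shares printed here hold for the deposited flags.

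The 8 group means were fitted with limma 3.58.1 (R 4.3.3, eBayes with a trend), two-sided, with Benjamini-Hochberg adjustment over 631 miRNAs. The methods' rank test, run as an exact test, cannot go below p = 0.1 with 3 against 3 and is an alternative. Pairs of relatives were tested by exact permutation within mice (numpy 2.4.6). Calls required an adjusted p under 0.05 and a change of at least 1. The procedure was also run on simulated arrays, with rises and falls equally likely and fewer changed miRNAs than were called in storage. That run therefore does not test the scaling under changes as widespread as those of storage.

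Arrays were grouped by their description, which carries the mouse number; the numbers pair the samples because the parts come from the same liver. Deviations from the group means correlated at 0.091 on average between arrays of 1 mouse and at -0.045 between mice. The named miRNAs were the 6 members, up to 3 examples by size of change from each list of relatives, and the 5 miRNAs most alike over the group means. Members and lists were chosen with earlier results of these data known. miR-16-1-3p, miR-497a-5p, miR-107-3p, miR-322-5p and let-7b-5p were singled out after their values were seen. Alternatives were other scalings, no filter, the mouse as a block, the compared groups alone, each mouse left out, the title's dose labels and a rank test. In the log2 signal and in scaling by the 75th percentile, quantiles alone, spike-in probes or none, values under 0.901 were set to 0.901. That floor is the median over arrays of the lowest detected signal. The setting without normalization was added after the data were seen.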

Additional observations from a re-analysis of the deposited data

How the results depend on the processing

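Each comparison was refitted under up to 14 other settings. The counts of members called stayed within 1.5 times the main count except for the following. With the exact rank-sum test, whose smallest p of 0.1 cannot pass, the count was 0 of 6 in storage with DNase, storage without DNase and depletion. With no normalization between arrays it was 2 in storage without DNase, where 579 of the 631 tested miRNAs were called in either direction. In depletion the count was 3 under quantile normalization, where 243 of the 631 were called. After RNase it was 6 under scaling on the 75th percentile, 5 under quantile normalization and 2 under normexp with quantiles, where the main count was 0. In that order 344, 353 and 56 of the 631 were called after RNase. Leaving out 1 mouse gave 6 in both storage comparisons, 5 in depletion, 0 in the interaction, DNase omission at 0 h, mock incubation and RNase, and 0 to 6 in DNase omission at 96 h, with 6 only without mouse 10. In that last setting 152 of the 631 tested miRNAs were called in either direction. The replicate block by mouse left the count at 6, 6 and 5 in storage with DNase, storage without DNase and depletion and at 0 in the other comparisons, so it changed no call of a member.

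Directions that turned were all in changes not called in the main fit. In depletion miR-15b-5p (mmu-miR-15b-5p) turned to 0.95 under the 75th percentile, 0.91 under quantile normalization and 0.54 under normexp with quantiles. In DNase omission at 0 h, quantile normalization gave -0.100 for mmu-miR-15b-5p, -0.099 for mmu-miR-16-5p, -0.11 for mmu-miR-26a-5p and -0.12 for mmu-miR-26b-5p. Normexp with quantiles gave -0.057, -0.040, -0.10 and -0.051 for the same 4, and the 75th percentile -0.018 for mmu-miR-26a-5p. In the interaction, normexp with quantiles gave -0.0036 for mmu-miR-195a-5p, and leaving out a mouse gave -0.14 to 0.71 for mmu-miR-15a-5p and -0.018 to 1.29 for mmu-miR-16-5p.

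In mock incubation, spike-in scaling gave -0.25 for mmu-miR-15a-5p, -0.019 for mmu-miR-16-5p, -0.14 for mmu-miR-195a-5p, -0.15 for mmu-miR-26a-5p and -0.26 for mmu-miR-26b-5p. No normalization gave -0.11 for mmu-miR-15a-5p, -0.036 for mmu-miR-195a-5p, -0.0027 for mmu-miR-26a-5p and -0.11 for mmu-miR-26b-5p. The 75th percentile gave -0.075 for mmu-miR-15a-5p, -0.0035 for mmu-miR-195a-5p and -0.083 for mmu-miR-26b-5p. Quantile normalization gave -0.021 and leaving out a mouse -0.0015 to 0.50 for mmu-miR-26b-5p.

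After RNase the 75th percentile gave -1.23 for mmu-miR-15a-5p, -1.19 for mmu-miR-16-5p, -1.06 for mmu-miR-195a-5p, -1.25 for mmu-miR-26a-5p and -1.15 for mmu-miR-26b-5p. Quantile normalization gave -1.35, -1.43, -0.60, -1.77 and -1.42 for the same 5, and normexp with quantiles -0.35, -0.72, -0.045, -1.29 and -0.85. For mmu-miR-15b-5p spike-in scaling gave 0.27, the deposited values 0.0025 and no normalization 0.41. Leaving out a mouse gave -0.073 to 0.15 for mmu-miR-15a-5p, -0.11 to 0.090 for mmu-miR-15b-5p, -0.037 to 0.23 for mmu-miR-16-5p, -0.082 to 0.080 for mmu-miR-195a-5p and -0.087 to 0.18 for mmu-miR-26a-5p. The difference of mmu-miR-15b-5p and mmu-miR-195a-5p after RNase turned to 0.14 on the log2 signal, where signals of mmu-miR-195a-5p under 0.901 were set to that value. The cause of these turns was not tested.

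The count of unequal pairs was 12 of 21 on the log2 signal and 10 with the deposited table, against 10. With 1 mouse left out the exact test cannot pass, and only values were computed. The 3 mice and signals near background, as for miR-195a-5p in depleted RNA, limit what could be seen.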
